A study of Mus musculus with 8 samples.

Results

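The NCOR corepressor complex is described here through the transcripts of 7 subunit genes, Ncor1, Hdac1, Hdac2, Hdac3, Tbl1x, Tbl1xr1 and Gps2, taken by symbol from a table of 10924 genes. All 7 symbols had a row, and 6 of them passed the filter on low values, while Tbl1xr1 did not. The libraries came from cell lines grown out of mouse mammary tumors driven by polyoma middle T antigen (PyMT) from the MMTV promoter, in the strain labeled FBV/N. The cells were wild type (WT) or conditionally deleted for the Hippo pathway kinase Lats1 (Lats1-CKO), and both genotypes carried the PyMT oncogene. Cultures of each genotype were separated by FACS into luminal cells, high for both EpCAM and CD49f, and basal-like cells, low for EpCAM and high for CD49f, and were expanded in culture for a short time before RNA was taken. MARS-seq, which reads the 3' ends of transcripts, was done on 2 libraries in each of the 4 groups, 8 libraries in all, and the labels name no drug treatment. The labels do not say whether replicate libraries are from separate cultures or lines, so that the p-values measure the spread between these libraries, which may be technical.

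NCOR1 is a large scaffold protein with no enzyme activity of its own. It is brought to DNA by unliganded or antagonist-bound nuclear receptors and by other sequence-specific repressors, and it carries HDAC3, a histone deacetylase that gains activity when bound by the scaffold, together with the WD40-repeat proteins TBL1X and TBL1XR1 and the small subunit GPS2. Removal of acetyl groups from histones at a bound promoter keeps transcription low. HDAC1 and HDAC2 are close paralogs that serve mainly in the SIN3, NuRD and CoREST complexes and have also been found with NCOR1. In mammary epithelium NCOR1 is best known as a partner of the estrogen receptor bound to antagonists. The study asked how LATS1 acts on the luminal state through NCOR1 and HDAC1. It reported weaker NCOR1 protein staining in Lats1-CKO than in WT cells, and less NCOR1 at regulatory regions of repressed genes. The libraries allow the narrower question of whether the subunit transcripts differed between genotypes or populations. Transcript levels do not measure the amount of protein, its binding or the assembly of the complex.

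Each gene tested has a normalized read count per library, which is the number of reads divided by the size factor of that library. The libraries held between 1070358 and 2334446 reads, so that 1 read was worth between 0.638 and 1.35 normalized counts. Lats1 itself lay between 30.3 and 62.5 in the 4 WT libraries and between 8.04 and 13.4 in the 4 Lats1-CKO libraries, with no overlap (limma adjusted p = 0.0716 over both populations, called by DESeq2 but not by edgeR). The labels do not give the deleted exons, and 3' reads may lie outside them. The luminal keratin Krt8 ran from 529 to 2694 in WT and from 792 to 1801 in Lats1-CKO luminal cells, and was 20.1 and 36.2 in Lats1-CKO basal-like cells. The basal keratin Krt5 stayed between 18.3 and 31.9 in 7 libraries and was 4881 in Lats1-CKO luminal replicate 2. Krt14, also a basal keratin, was 3830 and 1971 (luminal) and 2098 and 1098 (basal-like) in WT. In Lats1-CKO it was 3019 and 14721.5 (luminal) and 125 and 681 (basal-like). Epcam was 708 and 523 (luminal) and 562 and 255 (basal-like) in WT, with overlap. In Lats1-CKO it was 511 and 555 (luminal) and 10.7 and 33.7 (basal-like). The basal-like groups are thus defined by their gate and not by these basal keratins. In WT, luminal replicate 2 and basal-like replicate 1 were more alike (Pearson's r = 0.942 across genes, which are not independent replicates) than either was with its own group (0.892 and 0.886), and results were computed again without both. Replicates did not group by population in Lats1-CKO either, where r between the basal-like libraries was 0.792. Basal-like replicate 1 was closer to luminal replicate 1 (0.852), and basal-like replicate 2 to luminal replicate 2 (0.868). The replicate numbers used here follow the order of the sample names, are not given by the labels and do not pair libraries across groups. Lats1-CKO luminal replicate 1 was closer to WT basal-like replicate 1 (0.906) than to Lats1-CKO luminal replicate 2 (0.863). The Lats1-CKO libraries were left out only 1 at a time. Luminal markers (8 of 10 used) summed to between 3605 and 12298 in WT. In Lats1-CKO they summed to 7942 and 2787 (luminal) and 177 and 282 (basal-like). Basal markers (5 of 8) summed to 4031 and 2132 (luminal) and 2281 and 1305 (basal-like) in WT. In Lats1-CKO they summed to 3137 and 20036 (luminal) and 218 and 901 (basal-like). Proliferation genes (8 of 8) lay between 568 and 2530. Summed markers of fibroblasts (7 of 9 listed genes used) ran from 8.11 to 366 in WT and from 139 to 1031 in Lats1-CKO. In each library 0 to 4 of the 7 were at 0. The mesenchymal receptor gene Pdgfrb alone gave 352 of the 366 and 666 of the 1031. In Lats1-CKO basal-like replicate 2 it gave 198 of 499.6. Endothelial markers (1 of 5 used) summed to at most 18.8, and immune markers (3 of 6) to between 6.06 and 89.3. The share of any of these cells in the values below was not tested, and in bulk RNA fewer cells with a transcript cannot be told apart from less of it per cell.

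Promoters are shown for Ncor1 and Gps2, whose values spread least over the 8 libraries, and for Hdac2 and Tbl1x, whose values spread most of those tested. The rank of Hdac2 rested on Lats1-CKO basal-like replicate 2. Without it the SD of log2(value + 1) was 0.287 for Hdac2, 0.407 for Hdac1 and 0.405 for Tbl1x. The spread of Ncor1 was below that of counting reads alone, as given below. A link between promoter sequence and spread was not tested, and the promoter of Tbl1xr1 is not shown. RefSeq promoters (GRCm38.p6, from 250 bases before to 50 bases after the start) were found for 5 of the 7 genes (not for Hdac1 and Hdac3). Capitals mark matches, on either strand, to a CCAAT box (CCAAT), a GC box (GGGCGG), an ETS motif (CCGGAAG), a YY1 motif (AAGATGGC), a TATA box (TATAAA) and a CRE core of cyclic AMP response elements (TGACG).
Ncor1, chr11:62457283-62457582, minus strand: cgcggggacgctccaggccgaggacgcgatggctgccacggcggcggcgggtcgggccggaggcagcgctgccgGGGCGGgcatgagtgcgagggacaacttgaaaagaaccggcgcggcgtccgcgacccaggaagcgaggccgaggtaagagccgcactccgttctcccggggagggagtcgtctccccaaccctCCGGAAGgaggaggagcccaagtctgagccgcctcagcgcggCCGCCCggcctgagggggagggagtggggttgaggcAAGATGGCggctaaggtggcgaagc
Gps2, chr11:69913770-69914069, plus strand: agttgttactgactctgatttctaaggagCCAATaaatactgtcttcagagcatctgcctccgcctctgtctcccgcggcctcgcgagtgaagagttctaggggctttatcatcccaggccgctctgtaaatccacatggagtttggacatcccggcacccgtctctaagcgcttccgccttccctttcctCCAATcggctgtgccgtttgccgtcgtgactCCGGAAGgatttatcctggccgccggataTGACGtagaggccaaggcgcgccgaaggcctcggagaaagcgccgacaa
Hdac2, chr10:36974294-36974593, plus strand: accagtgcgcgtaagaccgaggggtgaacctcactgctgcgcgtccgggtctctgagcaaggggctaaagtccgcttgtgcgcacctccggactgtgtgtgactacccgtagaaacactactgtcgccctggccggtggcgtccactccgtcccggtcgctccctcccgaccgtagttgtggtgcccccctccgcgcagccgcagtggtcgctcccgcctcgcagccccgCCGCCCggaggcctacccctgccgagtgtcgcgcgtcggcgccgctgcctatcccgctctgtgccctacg
Tbl1x, chrX:77510977-77511276, plus strand: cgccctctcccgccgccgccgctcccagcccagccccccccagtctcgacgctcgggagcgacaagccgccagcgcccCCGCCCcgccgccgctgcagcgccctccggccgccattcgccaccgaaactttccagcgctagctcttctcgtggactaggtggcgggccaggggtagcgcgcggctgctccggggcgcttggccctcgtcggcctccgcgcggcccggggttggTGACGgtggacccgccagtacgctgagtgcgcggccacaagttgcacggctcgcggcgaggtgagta

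The Ncor1 promoter held 36 CpG pairs at 72.3% GC, that of Hdac2 held 36 at 69.7%, that of Tbl1x held 43 at 75.3% and that of Gps2 held 24 at 56.7%, against medians of 7 CpG pairs and 52.7% over 32851 promoters. Ncor1 had 2 GC boxes, 1 ETS motif and 1 YY1 motif, the last of these downstream of the start. Gps2 had 2 CCAAT boxes, 1 ETS motif and 1 CRE core, Hdac2 had 1 GC box, read on the opposite strand, and Tbl1x had 1 GC box and 1 CRE core. Over all promoters of this length 35.7% held the GC box, 8.86% the ETS motif, 2.75% the YY1 motif, 37.4% the CCAAT box, 20.8% the CRE core and 13.6% the TATA box. Of the motifs searched, Ncor1 and Gps2 shared the ETS motif, the GC box was in Ncor1, Hdac2 and Tbl1x, and the CRE core was in Gps2 and Tbl1x, which describes these windows and not binding. A further start of Ncor1, at chr11:62438466-62438765, had 2 CpG pairs and 38.3% GC and is not shown.

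The scaffold transcript, Ncor1 (chromosome 11, 62316426 to 62458541, minus strand, GRCm38), was nearly level across the libraries. Its normalized read count was 67.6 and 75.3 (luminal) and 70.0 and 81.9 (basal-like) in the WT libraries, and 74.8 and 68.6 (luminal) and 79.0 and 69.9 (basal-like) in Lats1-CKO. The 4 groups overlapped in every pairing, and the highest library was 1.21 times the lowest. These values rest on 50 to 118 reads a library. Averaged over both populations, Ncor1 in Lats1-CKO was 0.99 times its level in WT (95% interval 0.718 to 1.37, limma adjusted p = 0.992). The interval leaves out a fall to below 0.718 times WT or a rise to above 1.37 times, and smaller changes could not be resolved. Between populations, averaged over genotypes, the log2 fold change was 0.07 (interval -0.40 to 0.54), with the basal-like mean slightly above the luminal one. The interaction (the basal-like minus luminal difference of Lats1-CKO, less that of WT) was -0.03 (interval -0.97 to 0.90).

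**Figure D1:**
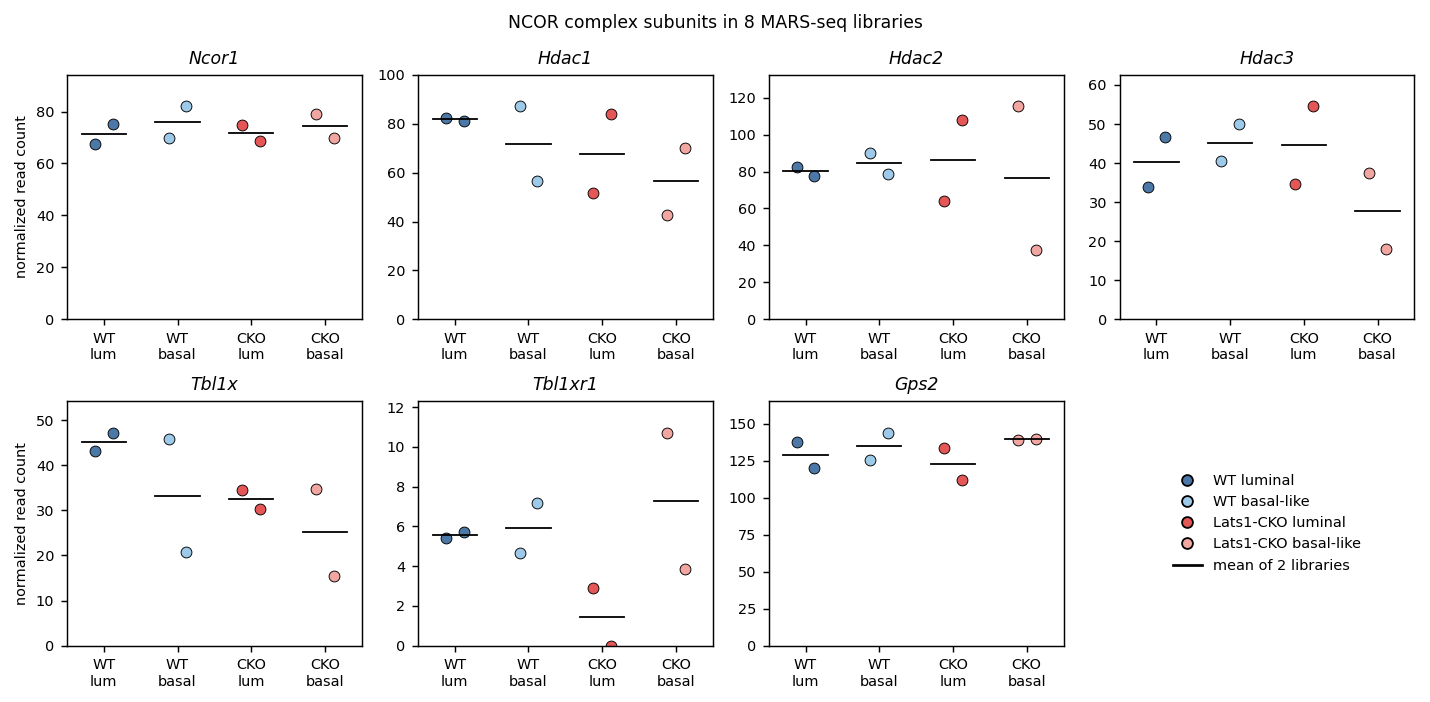
Normalized read count of each subunit (vertical axes from 0, a scale of its own for each gene) in the 4 groups, with a point for each library and a line at the mean of 2. Ncor1 keeps between 67.6 and 81.9 and Gps2 between 112 and 144, while Hdac2 in Lats1-CKO basal-like cells is split between 115 and 37.5.

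Hdac3 (chromosome 18, 37935844 to 37955016, minus strand), the deacetylase that NCOR1 activates, had 33.8 and 46.6 (luminal) and 40.4 and 50.1 (basal-like) in the WT libraries, and 34.5 and 54.5 (luminal) and 37.5 and 18.1 (basal-like) in Lats1-CKO. Both Lats1-CKO basal-like libraries lay below both WT basal-like libraries. Such a separation of 2 from 2 libraries was found, in either direction, for 35.4% of the 9031 genes tested in this comparison. The log2 fold change was -0.76 (interval -1.83 to 0.31, adjusted p = 0.696), the lowest adjusted p of any subunit in the 7 comparisons. It moved to -0.26 without Lats1-CKO basal-like replicate 2 and to -1.27 without replicate 1 (adjusted p = 0.372), and so depended on which library was kept. Against Lats1-CKO luminal cells the log2 fold change was -0.71 (interval -1.78 to 0.36). The last 500 bases of Hdac3, where 3' reads fall, lie within the neighboring gene Diaph1 on the same strand once that gene is extended by 1000 bases as the authors did. Union-mode counting leaves out reads that fit more than 1 gene, so the Hdac3 counts, 14 to 73 reads a library, may hold only part of its reads.

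Hdac1 (chromosome 4, 129516104 to 129542713, minus strand) had 82.4 and 81.0 (luminal) and 87.0 and 56.5 (basal-like) in the WT libraries, and 51.8 and 83.8 (luminal) and 42.9 and 69.9 (basal-like) in Lats1-CKO. The WT luminal libraries were close to each other and the other groups each held a high and a low library, with overlap between genotypes. Lats1-CKO averaged 0.796 times WT (interval 0.501 to 1.27, adjusted p = 0.788). In luminal cells the log2 fold change of -0.31 turned to 0.04 when Lats1-CKO luminal replicate 1 was left out.

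Hdac2 (chromosome 10, 36974544 to 37001889, plus strand) had 82.4 and 77.8 (luminal) and 90.2 and 78.8 (basal-like) in the WT libraries, and 64.3 and 108 (luminal) and 115 and 37.5 (basal-like) in Lats1-CKO. The 4 WT libraries lay close together, and the highest and the lowest of all 8 were the replicates of 1 group, Lats1-CKO basal-like. The log2 fold change of that group against WT basal-like was -0.35 (interval -1.59 to 0.89, adjusted p = 0.896). It turned to 0.45 without Lats1-CKO basal-like replicate 2 and became -1.15 without replicate 1 (adjusted p = 0.364), so that no direction can be given for Hdac2 in these cells.

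The balance of the paralogs followed the same libraries. The log2 ratio of Hdac1 to Hdac2 was 0 and 0.06 for the luminal and -0.05 and -0.48 for the basal-like WT libraries, and -0.31 and -0.37 for Lats1-CKO luminal. In Lats1-CKO basal-like cells it was -1.43 in replicate 1 and 0.90 in replicate 2, the lowest and the highest of the 8. Hdac1 was the lower of the pair in replicate 1 and Hdac2 in replicate 2. These are ratios within a library and do not depend on its scaling. Reads that fit both paralogs at similar sequence may have been left out or given to the other gene, which was not tested.

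The WD40 subunits TBL1X and TBL1XR1 link the complex to histones and to the machinery that exchanges corepressors for coactivators. Tbl1x (chromosome X, 77511013 to 77662983, plus strand) had 43.2 and 47.2 (luminal) and 45.9 and 20.7 (basal-like) in the WT libraries, and 34.5 and 30.3 (luminal) and 34.8 and 15.5 (basal-like) in Lats1-CKO. Both Lats1-CKO luminal libraries lay below both WT luminal ones, a separation that 31.1% of genes tested had in either direction. The log2 fold change there was -0.47 (interval -1.69 to 0.75, adjusted p = 0.9998). Lats1-CKO averaged 0.742 times WT over both populations (interval 0.409 to 1.35, adjusted p = 0.783). The difference between WT basal-like and WT luminal cells, -0.53 on the log2 scale, was 0.02 without WT basal-like replicate 2. In Lats1-CKO against WT basal-like cells the value of -0.39 turned to 0.17 without WT basal-like replicate 1, without both alike WT libraries, and also without Lats1-CKO basal-like replicate 2.

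Tbl1xr1 (chromosome 3, 22076652 to 22216594, plus strand) was at the limit of detection. It had 5.41 and 5.74 (luminal) and 4.66 and 7.16 (basal-like) in the WT libraries, and 2.88 and 0 (luminal) and 10.7 and 3.88 (basal-like) in Lats1-CKO. These values come from 0 to 9 reads a library, 42 in all. WT libraries held 28 of the reads and Lats1-CKO libraries 14, with means of 5.74 ± 1.05 and 4.37 ± 4.54 (SD, n = 4 each). The spread among the Lats1-CKO libraries covers the WT range, and no difference was detectable at this depth. Only 1 library reached the minimum of 10 that the filter asked of 2.

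GPS2 binds TBL1X and NCOR1 and is a core subunit of the complex. Gps2 (chromosome 11, 69913888 to 69916591, plus strand) had 138 and 120 (luminal) and 126 and 144 (basal-like) in the WT libraries, and 133 and 112 (luminal) and 139 and 140 (basal-like) in Lats1-CKO. The groups of the 2 genotypes overlapped within each population, and both Lats1-CKO basal-like libraries lay above both Lats1-CKO luminal ones, a separation that 35.7% of genes tested had in either direction. The log2 fold change in that comparison was 0.19 (interval -0.44 to 0.82, adjusted p = 0.952). Lats1-CKO averaged 0.993 times WT (interval 0.730 to 1.35, adjusted p = 0.992), on 102 to 188 reads a library.

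**Figure D2:**
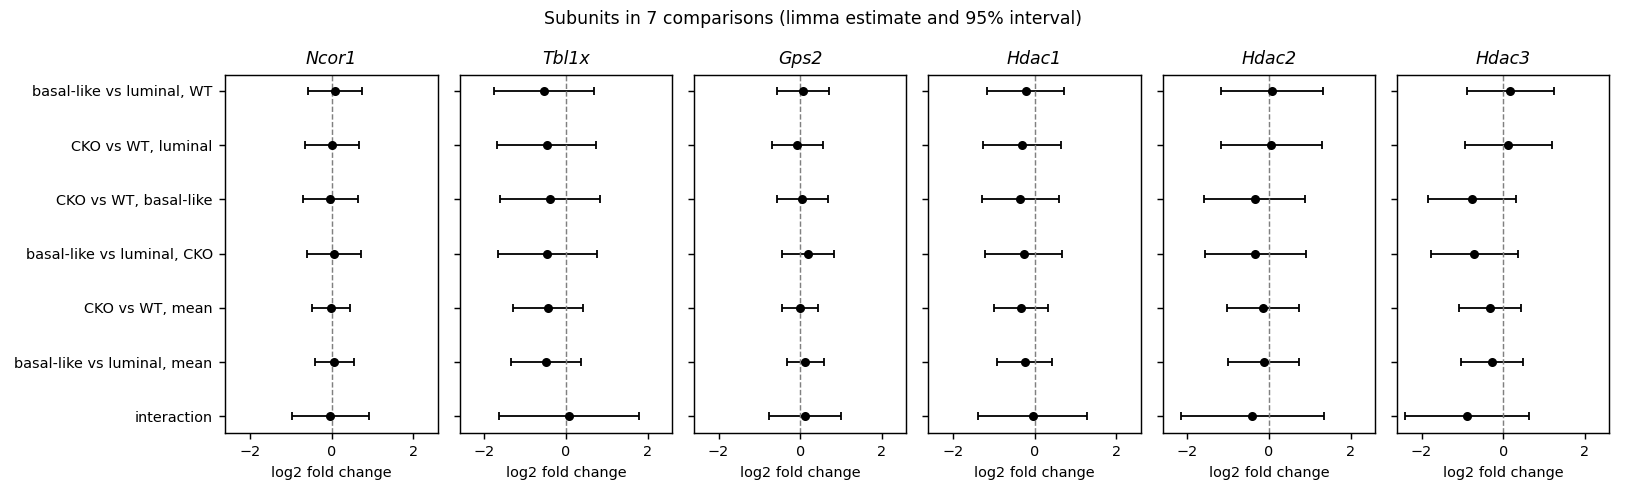
Log2 fold change of the 6 subunits tested (horizontal axes) in 7 comparisons (rows), with the limma estimate as a point and its 95% interval as a bar. Each of the 42 intervals crosses 0, and those of Ncor1 and Gps2 are the narrowest.

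Over the complex as a group, 0 of the 6 tested subunits passed limma's test at an adjusted p under 0.05 in any of the 7 comparisons, and 0 did so at an unadjusted p under 0.05. The count was also 0 with DESeq2 and with edgeR's quasi-likelihood test. The background was small, which limits what a count of 0 shows. Of all 9031 genes limma called 0% in WT basal-like against WT luminal, 0% in Lats1-CKO luminal against WT luminal, 0.554% in Lats1-CKO against WT basal-like, 0.487% between the Lats1-CKO populations, 0.288% for genotype over both populations, 0.376% for population over both genotypes and 0% for the interaction. Without both alike WT libraries 0 genes were called in each of the 7. At an unadjusted p under 0.05 the background shares were 1.47%, 2.78%, 8.86%, 7.32%, 9.36%, 6.48% and 2.33% in that order. In WT basal-like against WT luminal cells 24.6% of genes had libraries that did not overlap, and no subunit did. With all 4 Lats1-CKO libraries set against all 4 WT libraries, 4.55% of genes did not overlap, and again no subunit did.

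In genotype over both populations 0 of 6 subunits had a positive and 6 a negative fold change, with 4429 positive and 4602 negative among all genes tested. Ncor1 and Gps2, both at -0.01, were at the all-gene median of -0.01, and the median of the subunits was -0.23 on the log2 scale. Between the genotypes in basal-like cells 1 was positive and 5 negative (4346 and 4685 over all genes), with a median of -0.35 against -0.02. In luminal cells 3 were positive and 3 negative (4605 and 4425), with a median of -0.03. In WT basal-like against WT luminal 4 were positive and 2 negative (4631 and 4393), with a median of 0.07. In each of the remaining 3 comparisons 2 were positive and 4 negative, with medians of -0.30 between the Lats1-CKO populations, -0.19 for population over both genotypes and -0.04 for the interaction. No subunit passed the test in these counts, and the comparisons share libraries. Lats1-CKO basal-like replicate 2 was the lowest of the 8 libraries for 3 of the 6 subunits, Hdac2, Hdac3 and Tbl1x, where 17.2% of all genes tested had their lowest value in it.

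The subunits differed in how far they spread over the libraries. The SD of log2(value + 1) over the 8 libraries was 0.10 for Ncor1, and 4 of the 2052 other genes within 1.5-fold of its mean level, or 0.195%, had a lower SD. Gps2 had an SD of 0.13, with 9 of 1738 genes of like level, or 0.518%, below it. The medians of these like-level genes were 0.42 and 0.39. Hdac1 (0.38), Hdac2 (0.50), Hdac3 (0.48) and Tbl1x (0.55) lay in the middle, with 41.1%, 63.0%, 49.9% and 57.2% of their like-level genes below them. The variance of Ncor1 was 0.376 times that expected from counting reads alone and that of Gps2 was 1.03 times. The medians for genes of like level were 6.0 and 8.91. A ratio under 1 is less than counting alone gives on average for a constant transcript. The low spread of Ncor1 can thus not be read as that of the transcript alone. For the remaining subunits this ratio was between 2.89 and 6.07. This comparison was made after the values had been seen and is given as a description. The share of like-level genes with a lower SD stayed at or below 0.440% for Ncor1 (without WT basal-like replicate 1) and 1.67% for Gps2 (without Lats1-CKO basal-like replicate 1) when each library was left out in turn, and was 0.930% and 0.976% after scaling to library totals. Without Lats1-CKO basal-like replicate 2 this share became 29.1% for Hdac2 and 13.5% for Hdac3.

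**Figure D3:**
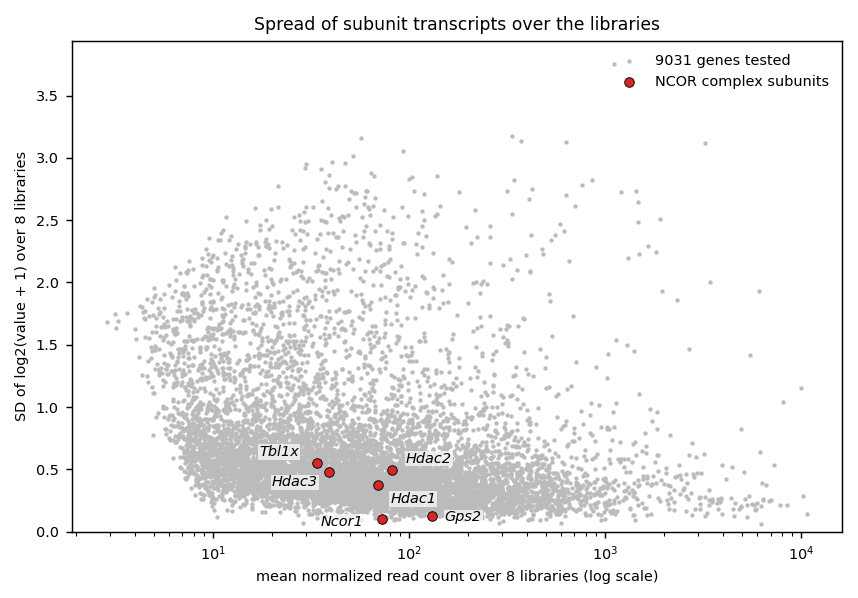
SD of log2(value + 1) over the 8 libraries (vertical axis) against the mean normalized read count (horizontal log axis) for 9031 genes in grey, with the 6 tested subunits in red. Ncor1 at 0.10 and Gps2 at 0.13 lie at the lower edge of the cloud, and the other subunits, from 0.38 to 0.55, within it.

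The genes whose pattern over the 8 libraries was most like that of each subunit, by Pearson's r of log2(value + 1), are a description, since the highest of 9031 values over 8 points is high for any gene. For Ncor1 these were Laptm4b (0.962), Cd34 (0.957) and Ube2f (0.950). For Gps2 they were Sema3f (0.977), Atf7 (0.974) and Cds2 (0.943), for Hdac1 they were Dpp8 (0.965), 2200002D01Rik (0.955) and Foxk2 (0.950), and for Hdac2 they were Ptk7 (0.972), Crabp2 (0.969) and Zbtb6 (0.945). Hdac3 had Hmgxb4 (0.958), Fra10ac1 (0.955) and Kbtbd2 (0.940), and Tbl1x had Mrps5 (0.984), Senp5 (0.981) and Mgme1 (0.973). No subunit was among the 3 nearest genes of another. Between subunits r ran from -0.755 (Ncor1 and Hdac1) to 0.805 (Hdac2 and Hdac3), over 8 libraries that share their scaling. Cd34 went from 2.02 to 165 while Ncor1 went from 67.6 to 81.9, so a like order did not mean a like size of change.

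The other genes of the pathway were taken from lists of known partners and related complexes, and limma called 0 genes of any of them in the 7 comparisons. Values below are for Lats1-CKO against WT basal-like cells, where 0.554% of all genes were called. Of the other NCOR partners 7 of 8 were tested, with 2 positive, 5 negative and a median log2 fold change of -0.35. Skil, a SMAD-binding corepressor, had 34.2 and 25.5 in WT basal-like and 17.4 and 11.6 in Lats1-CKO basal-like libraries (-1.0, adjusted p = 0.545), and Zbtb33, the methyl-DNA binding protein Kaiso, had -0.76 (adjusted p = 0.801). Zbtb33 rested on few reads, 14 and 12 in WT basal-like and 3 and 6 in Lats1-CKO basal-like libraries. The other HDACs and sirtuins (13 of 15 tested) had a median of -0.06, with Hdac10 at 0.79 (adjusted p = 0.645) and the mitochondrial sirtuin Sirt4 at -0.70 (adjusted p = 0.848). Sirt4 rested on 8 and 18 reads in WT basal-like and 2 and 8 in Lats1-CKO basal-like libraries.

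The complexes that share HDAC1 and HDAC2 had medians between -0.19 and 0.23. The SIN3 list (12 of 16 tested) had a median of -0.17, and its members of largest size were Brms1l, at 27.2 and 22.3 in WT basal-like and 58.9 and 49.2 in Lats1-CKO basal-like libraries (1.10, adjusted p = 0.411), and Sap30 at -0.93 (adjusted p = 0.588). The NuRD list (11 of 13) had a median of -0.19, with Mta2 at -0.42 (adjusted p = 0.789) and Gatad2a at -0.37 (adjusted p = 0.817). The CoREST and MiDAC list (9 of 12) had a median of 0.23. In it Kdm1a, the lysine demethylase LSD1 of CoREST, had 80.8 and 73.2 in WT basal-like and 36.2 and 49.2 in Lats1-CKO basal-like libraries (-0.85, adjusted p = 0.467), and Elmsan1, the MiDAC scaffold, had 0.51 (adjusted p = 0.796). The acetyltransferases and coactivators, which oppose the deacetylases, had a median of -0.13 (10 of 13 tested), with the steroid receptor coactivator Ncoa2 at -0.80 (adjusted p = 0.703) and the acetyltransferase Kat2a at 0.62 (adjusted p = 0.750). Ncoa2 rested on 18 and 19 reads in WT basal-like and 6 and 6 in Lats1-CKO basal-like libraries.

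Nuclear receptors and other factors that recruit NCOR ranged from -4.42 to 2.32 on the log2 scale over 16 genes tested. The 6 subunits tested ranged from -0.76 to 0.05, but ranges of lists that differ in size and read depth cannot be compared directly. Of 27 listed, 16 were tested, with 11 positive, 5 negative and a median of 0.59. Esr1, the gene of estrogen receptor alpha, was listed but had no row in the deposited values, and neither had Esr2 or Pgr. The estrogen receptor transcripts could thus not be compared here. Nr2f1, an orphan receptor of the COUP-TF group, had 42.7 and 393 in WT basal-like and 6.70 and 3.88 in Lats1-CKO basal-like libraries (-4.42, adjusted p = 0.370), with a wide gap between the WT libraries. The adipogenic receptor Pparg had 2.33 and 7.16 against 52.2 and 11.6 (2.32, adjusted p = 0.701), on 3 and 9 reads against 39 and 9. DESeq2 called Nr2f1 and the thyroid hormone receptor Thra in this comparison, and Nr2f1 and the retinoid receptor Rxra in genotype over both populations, whereas edgeR called none of the list.

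A list of 7 genes came from the assays of NCOR1 repression in the study. Part of the genes it assayed were taken from those higher in Lats1-CKO than in WT luminal cells by its RNA-seq, and others from a database. Which of the 7 were taken in which way could not be settled from its text, so that their direction is not independent evidence. Of the 6 tested, 6 were positive and 0 negative in basal-like cells of Lats1-CKO against WT, where their median was 1.30, with 0 called by limma, while Sema6a was too low to test. Col5a1, a fibrillar collagen chain, had 5.41 and 7.65 (luminal) and 27.2 and 81.9 (basal-like) in the WT libraries, and 78.7 and 45.4 (luminal) and 229 and 243 (basal-like) in Lats1-CKO. Its log2 fold change over both populations was 2.66 (interval 1.75 to 3.57, limma adjusted p = 0.0539), and DESeq2 called it while edgeR did not. Pdgfrb, a growth factor receptor of mesenchymal cells that is also on the fibroblast list, had 37.3 and 352 in WT basal-like and 666 and 198 in Lats1-CKO basal-like libraries (1.65, adjusted p = 0.712). Over both populations its log2 fold change was 2.91 (limma adjusted p = 0.237), called by DESeq2 but not by edgeR. In the same libraries Ncor1 was 70.0 and 81.9 against 79.0 and 69.9. The fibroblast markers summed to 47.4 and 366 against 1031 and 499.6. Pdgfrb itself made up 37.3 and 352 of the WT sums and 666 and 198 of the Lats1-CKO sums. The sums are therefore not separate from Pdgfrb. The part of other cells in these values was not tested.

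**Figure D4:**
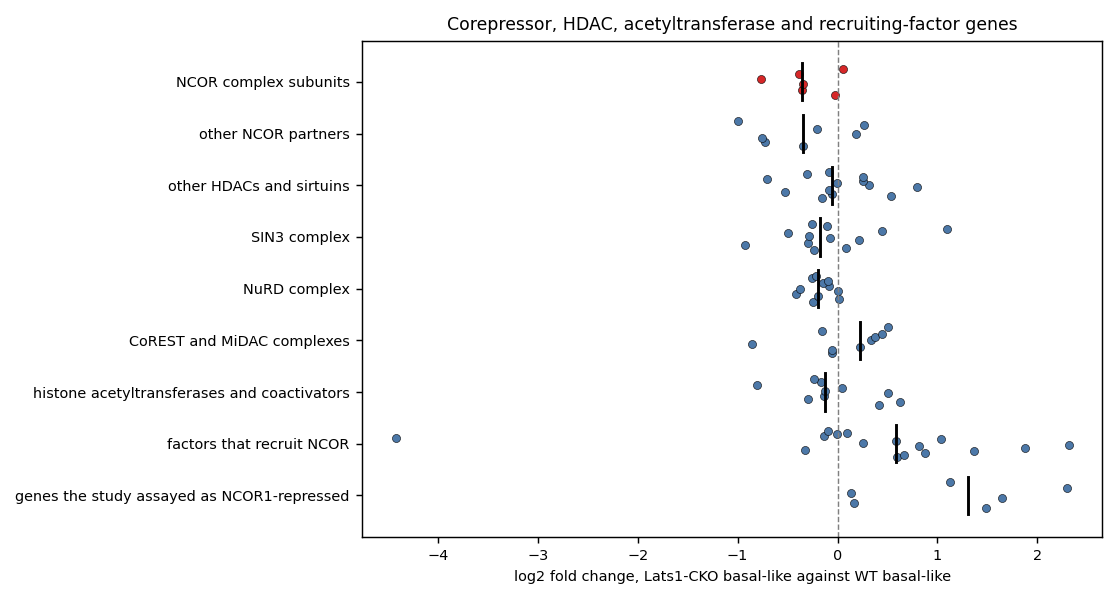
Log2 fold change between basal-like cells of the genotypes, Lats1-CKO over WT, (horizontal axis) of each tested gene of 9 lists (rows), with a line at the median of a list and the NCOR complex subunits in red. The subunits lie between -0.76 and 0.05, and the NCOR1-repressed genes, with a median of 1.30, to the right of 0.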

How the data were processed

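RNA was measured by MARS-seq in 8 libraries, 2 in each of 4 groups taken from the sample labels. For the deposited table the authors used cutadapt for trimming, STAR for alignment (mm10) and htseq-count (union mode) for counting over Gencode genes, lengthened by 1000 bases upstream and 100 bases downstream, and kept genes that reached 5 reads in a library. The deposited signal per gene was made by the authors as a count of reads over the size factor from DESeq2. Whether molecular identifiers or strand were used is not given in the sources used here. Another 24 deposited columns hold fold changes and p-values of the authors for 6 pairs of groups and were not used. Values were whole multiples of 1 read for 100% of genes (tolerance 1e-06), and library totals set a precision that covers counting error only.

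Genes that reached a value of 10 in 2 or more libraries (9031, with 1893 left out) were fitted with limma 3.58.1 (intensity trend, R 4.3.3) on log2(value + 1), which understates changes of low genes, with a coefficient per group and 4 residual degrees of freedom. P-values are two-sided and were adjusted by Benjamini-Hochberg over all genes tested. Alternatives were DESeq2 1.42.0 and edgeR 4.0.16 on recovered reads, TMM, no filter, a pseudocount of 5 and leaving out each library. Leaving out both alike WT libraries, and the settings of the spread, were chosen after seeing the data. The scripts were tested on simulated data. The subunits and gene lists were chosen with earlier results of these data known. Named were all subunits, in each list the genes called by limma or else the 2 of largest fold change in Lats1-CKO against WT basal-like cells, and the 3 genes most like each tested subunit. Lats1, Krt8, Krt5, Krt14, Epcam, Col3a1, Col1a2, Thra, Rxra and Sema6a were named outside this rule, after their values were seen. Esr1, Esr2 and Pgr, which had no row, were also named outside it. Gene positions are from GENCODE M21 (GRCm38).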

Additional observations from a re-analysis of the deposited data

How the results depend on the processing

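The 6 tested subunits in 7 comparisons gave 42 fold changes, and over 14 alternatives 588 values, of which 0 passed the threshold. The lowest adjusted p of a subunit was 0.364 in any alternative and 0.696 in the main test. In 56 values, 51 of them with 1 library left out, the sign turned, in 28 of the 42 results, and the largest main value that turned was 0.535 in size (Tbl1x, WT basal-like against WT luminal). Hdac2 and Hdac3 reached an unadjusted p under 0.05 only without Lats1-CKO basal-like replicate 1, in both comparisons of Lats1-CKO basal-like cells.

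The number of genes called over the whole table, the background for the subunits, changed more. DESeq2 was run with the model settings of the study, on the genes tested here and at an adjusted p under 0.05. The study called genes by fold change and unadjusted p, so these counts are not its own. DESeq2 called 1 gene in WT basal-like against WT luminal and 22 in Lats1-CKO luminal against WT luminal, where limma called 0 in both. It called 182 in Lats1-CKO against WT basal-like (limma 50), 130 between the Lats1-CKO populations, basal-like over luminal (limma 44), 225 for genotype (limma 26), 118 for population (limma 34) and 22 for the interaction (limma 0). edgeR called 17 in Lats1-CKO against WT basal-like and 21 for population. Without both alike WT libraries 0 were called in each of these comparisons. With 1 library left out the counts ran from 0 (without WT basal-like replicate 1) to 78 (without Lats1-CKO basal-like replicate 2) in Lats1-CKO against WT basal-like, from 9 (without Lats1-CKO luminal replicate 1) to 93 (without Lats1-CKO basal-like replicate 2) between the Lats1-CKO populations, from 0 (without any 1 of the 4 WT libraries or Lats1-CKO luminal replicate 2) to 70 (without Lats1-CKO basal-like replicate 2) for genotype, and from 0 (without WT luminal replicate 1 or WT basal-like replicate 2) to 78 (without Lats1-CKO basal-like replicate 2) for population. They ran from 0 to 2 (without Lats1-CKO luminal replicate 1) in Lats1-CKO luminal against WT luminal and in the interaction, and were 0 throughout in WT basal-like against WT luminal. A lone library left in a group is assumed to vary like the other groups. The causes were not tested. No paired analysis was possible because the labels number the libraries only as samples and give no shared replicate numbers.

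Depth limits Tbl1xr1 (42 reads in all). The widest intervals were those of Hdac2 and Tbl1x, with 687 and 295 reads, and the cause was not tested.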
